A study of Mus musculus with 12 samples.

Results

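The neurotrophins, the receptors that bind them and the related GDNF family receptors were followed in mouse hippocampal cultures given a miR-148a-3p mimic. The 8 genes, of 48709 in the count files, were named as a list: the ligands Bdnf and Ntf3, the tyrosine kinase receptors Ntrk2 and Ntrk3, the p75 receptor Ngfr, the sorting receptor Sort1, and the GDNF family co-receptors Gfra1 and Gfra2. All 8 passed the filter on low counts and were among the 18847 genes tested.

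Both groups of 6 libraries came from primary hippocampal neurons of embryonic day 17 CD1 mouse embryos, with the hippocampi of several embryos pooled per the methods of the study. Lipid nanoparticles were added at day 10 in vitro together with the lipid carrier protein ApoE4, and RNA was taken 48 h later, at day 12. The nanoparticles carried the miR-148a-3p mimic in 1 group, and in the other a negative control oligonucleotide, which the description of the series calls an siRNA. The labels do not say whether the 6 libraries of a group came from separate preparations, so the p-values measure the spread between these libraries, which may be technical.

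Neurotrophins are secreted growth factors that keep neurons alive and shape their dendrites and synapses. Each binds a Trk tyrosine kinase receptor, BDNF to TrkB and NT-3 to TrkC, and the kinase then drives the ERK, PI3K and phospholipase C pathways. Uncleaved proneurotrophins bind p75 together with sortilin, a pair best known for signalling growth cone collapse and cell death. The GDNF family uses a separate design, in which a lipid-anchored GFRα co-receptor binds the ligand and presents it to the kinase RET or to NCAM. In the hippocampus, BDNF is made mainly by excitatory neurons and is central to activity-dependent plasticity.

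A microRNA recognises transcripts through its seed, bases 2 to 8, which pair with complementary stretches of the 3′ UTR. The guide strand of the mimic and the control oligonucleotide are given first because their seeds define the sites searched for. Capitals mark the seed. The mimic is identical to the mature mmu-miR-148a-3p of RefSeq.
miR-148a-3p mimic: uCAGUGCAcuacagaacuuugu
negative control: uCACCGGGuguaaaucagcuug

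Of the 8 genes, 3 held a site for the mimic in the longest annotated 3′ UTR: Ntrk3 had 5, Ntrk2 had 1 and Gfra2 had 1. Bdnf, Ntf3, Ngfr, Sort1 and Gfra1 had none of 7 or 8 bases. Among 15082 tested genes with a 3′ UTR, 21.9% had at least 1 such site and 0.0928%, or 14 genes, had 5 or more. The long UTR of Ntrk3 goes with this count: at 16600 bases it was 1 of 49 tested genes with a 3′ UTR of at least 10000 bases, against a median of 1173 bases. Ntrk2 carried a further site in a different terminal exon, used by a shorter transcript that encodes a protein of 476 residues in place of 821. The sites are printed 5′ to 3′ with flanking bases, with the bases that match the seed (or bases 2 to 7 followed by an A) in capitals.
Ntrk2, 821-residue transcript: agatactggctTGCACTGgaaagacagt
Ntrk2, 476-residue transcript: attagagtgttTGCACTGgccaaccaca
Gfra2: tgagacattcaTGCACTGtctgtacata
Ntrk3, site 1: cctgggtaaaccGCACTGAcagggaaga
Ntrk3, site 2: cttccccactgTGCACTGgaggactgca
Ntrk3, site 3: gtgagaaaattgGCACTGAatgattcgg
Ntrk3, site 4: ctatgactttcTGCACTGtaagttattt
Ntrk3, site 5: gaataaagccgaGCACTGAgaatcctga

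On mm10, the first Ntrk2 site lies at chr13:59129242-59129269 on the plus strand, 900 bases after the stop codon in a UTR of 5617 bases. The site of the shorter transcript lies at chr13:58933832-58933859, 1783 bases into a UTR of 4967 bases. The Gfra2 site is at chr14:70979513-70979540 on the plus strand, 1028 bases into a UTR of 1342 bases, and both Gfra2 transcripts with an annotated 3′ UTR hold it. The Ntrk3 windows are on the minus strand, from chr7:78191352-78191379 for site 1, through chr7:78190959-78190986, chr7:78186017-78186044 and chr7:78184341-78184368, to chr7:78181523-78181550 for site 5. All 5 belong to the transcript for a protein of 825 residues. The other 3 coding transcripts with a 3′ UTR held none, namely those for 612 residues, with a UTR of 1939 bases, and for 864 and 839 residues, with UTRs of 179 and 152 bases.

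Ntrk3 was also the sole member with a match to the seed of the control oligonucleotide, which 4.42% of tested genes had in the 3′ UTR. It lies at chr7:78189377-78189404, between sites 2 and 3 for the mimic, and is shown because either oligonucleotide has a match in this UTR.
Ntrk3, control oligonucleotide site: atctaatatgctCCGGTGAgtcaagaat

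**Figure D1:**
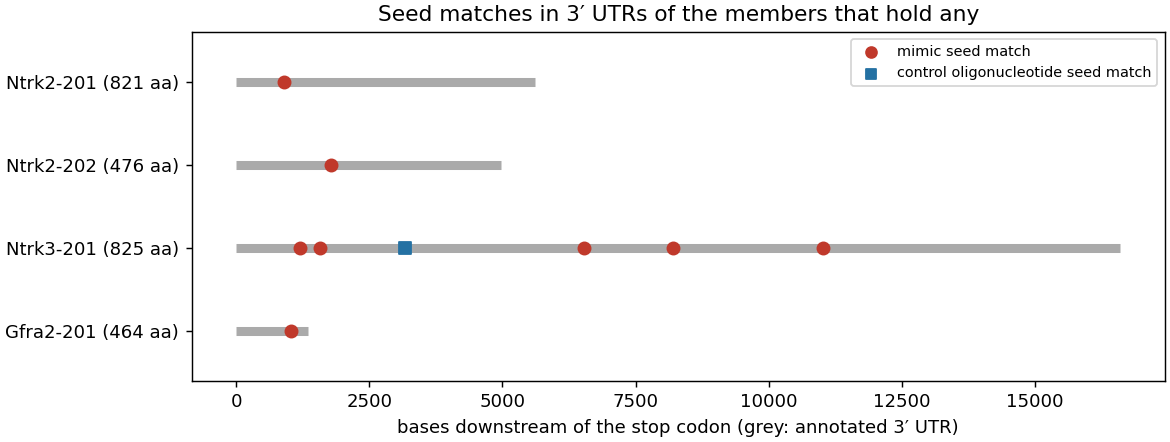
Positions of seed matches (x axis, bases after the stop codon) in the annotated 3′ UTRs (grey bars) of the 4 transcripts of Ntrk2, Ntrk3 and Gfra2 shown, with the protein length in residues beside each name. Ntrk3 carries 5 matches to the mimic (circles) and 1 to the control oligonucleotide (square) along 16600 bases, and the other 3 transcripts carry 1 match to the mimic each.

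Library totals ran from 20018234 to 37149112 counts and the shallowest library was control replicate 1, which also stood apart from the other libraries in several measures below. Values that rest on it are given with and without it. In control, the summed CPM (counts scaled to a common library total) of 8 neuronal marker genes was 7243 to 7976 per library and that of 8 astrocyte markers 4827 to 5313, so both cell types were well represented. Microglial markers summed to 22.0 to 25.9 CPM. Endothelial markers summed to 46.6 to 68.7 CPM, nearly all of it from Kdr at a mean of 58.6, while Pecam1, Cdh5, Flt1 and Tek were each below 1 CPM on average and Cldn5 was too low to be tested.

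Levels of the 8 genes in control cultures were compared per length as RPKM (CPM divided by the exon length in kilobases). Ntrk2 was the highest at 48.1 ± 1.75 RPKM (SD, n = 6), above 95.6% of the tested genes, followed by Sort1 at 44.7 ± 1.15. Ntrk3 at 15.8 ± 1.51 and Bdnf at 14.8 ± 1.16 formed the next step, Gfra1 at 7.39 ± 0.351 and Gfra2 at 5.70 ± 0.196 came below, and Ngfr at 3.31 ± 0.557 and Ntf3 at 1.78 ± 0.249 were lowest. In this order, Ntrk2 and Sort1 overlapped between libraries, as did Ntrk3 and Bdnf. No other neighbours overlapped. The Ntrk2 gene has many alternative exons, and with the length of its longest coding transcript its control level came to 106 RPKM in place of 48.1.

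With the mimic, 4 of the 8 genes were higher and 1 was lower at an edgeR adjusted p under 0.05. Bdnf, its receptor Ntrk2, Ngfr and Sort1 rose by 9.84% to 26.8%, and Gfra2 fell by 18.1%. Ntf3, its receptor Ntrk3, and Gfra1 were not called. Over all 18847 tested genes, 11.5% were called higher, 10.7% lower and 22.2% in either direction. In 4 of the 8 genes (Bdnf, Ntrk2, Sort1 and Gfra2) the groups were fully separated, with no overlap in CPM, which was so in 13.3% of tested genes. The median log2 fold change of the 8 was 0.069, against -0.012 over all tested genes, whose 5th and 95th percentiles were -0.47 and 0.50. All 5 calls were also made without control replicate 1, a setting in which the calls over all 18794 genes tested rose to 14.4% higher and 13.1% lower. In bulk RNA, a change in the number of cells of a type and a change in RNA per cell (fewer cells or less RNA) cannot be told apart.

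**Figure D2:**
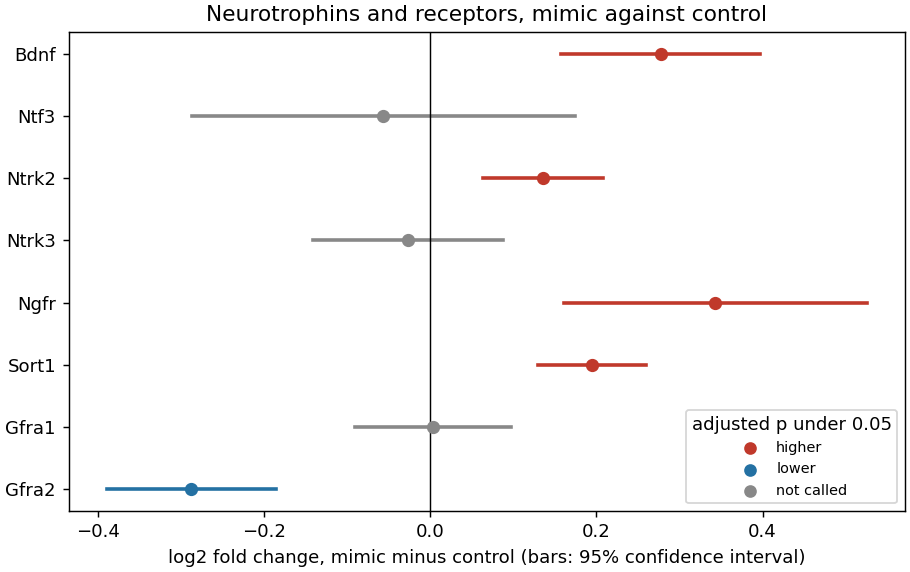
Log2 fold change of each gene, mimic minus control (x axis; points are edgeR estimates and bars 95% confidence intervals, 6 libraries per group). The intervals of Bdnf, Ntrk2, Ngfr and Sort1 lie above 0, that of Gfra2 lies below, and those of Ntf3, Ntrk3 and Gfra1 include 0.

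Among the ligands, Bdnf (ENSMUSG00000048482, mm10 chromosome 2, 109674700 to 109727007, plus strand) encodes the main activity-regulated neurotrophin of the hippocampus. Its level in control ran from 82.8 CPM through a median of 93.0 to 100.4, and in mimic from 102 through 110 to 126. Every mimic library lay above every control library. The mean rose from 92.1 ± 7.19 to 112 ± 8.58 CPM (SD, n = 6 each), and the log2 fold change was 0.28 (SE 0.057, 95% interval 0.16 to 0.40, edgeR adjusted p = 0.00160). The 11 annotated coding transcripts of Bdnf share a 3′ UTR of 2855 bases, which holds no site for either oligonucleotide. The exons share 896 bases with the antisense gene Gm45346, which averaged 7.92 counts per library against 1816 to 4243 for Bdnf.

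Ntf3 (ENSMUSG00000049107, chromosome 6, 126101412 to 126166910, minus strand) encodes NT-3, the preferred ligand of TrkC. It was the lowest of the 8 genes, with 54 to 117 counts per library. Control libraries ran from 2.29 CPM through 3.08 to 3.47, and mimic libraries from 2.502 through 2.89 to 3.41, so that the groups covered almost the same range. Its log2 fold change was -0.057 (SE 0.11, edgeR adjusted p = 0.779), with a 95% interval from -0.29 to 0.17. That interval includes an increase of the size of that in Ntrk2. Leaving out single libraries moved the estimate between -0.12 (without control replicate 2) and -0.012 (without mimic replicate 4), with no call.

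Of the Trk receptors, Ntrk2 (ENSMUSG00000055254, chromosome 13, 58806569 to 59133970, plus strand) encodes TrkB, which occurs as a full-length kinase in neurons and as truncated forms without the kinase that astrocytes express strongly. Control libraries ran from 877 CPM through a median of 932 to 973 and mimic libraries from 983 through 1017 to 1066. The groups did not overlap, although the highest control and the lowest mimic library were close. The mean moved from 929 ± 33.8 to 1020 ± 35.5 CPM (SD, n = 6 each), by 0.14 on the log2 scale (SE 0.034, 95% interval 0.063 to 0.21, edgeR adjusted p = 0.00788). This was the smallest of the 4 increases, in the most abundant gene of the list, and the gene has a site for the mimic in both of its long terminal exons. The counts are per gene, so full-length and truncated TrkB cannot be told apart.

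Ntrk3 (ENSMUSG00000059146, chromosome 7, 78175959 to 78738012, minus strand) encodes TrkC. With 5 sites for the mimic, it was not called. Control libraries ran from 401 CPM through 492 to 517, and mimic libraries from 446 through 465 to 491. The mimic libraries sat inside the control range, which was stretched downwards by control replicate 1. The means were 478 ± 45.5 and 469 ± 17.9 CPM (SD, n = 6 each), with a log2 fold change of -0.027 (SE 0.054, 95% interval -0.14 to 0.087, edgeR adjusted p = 0.788). Without control replicate 1 the log2 fold change was -0.073 and the edgeR adjusted p 0.162, and at the other end it was -0.0044 without control replicate 5, also with no call.

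**Figure D3:**
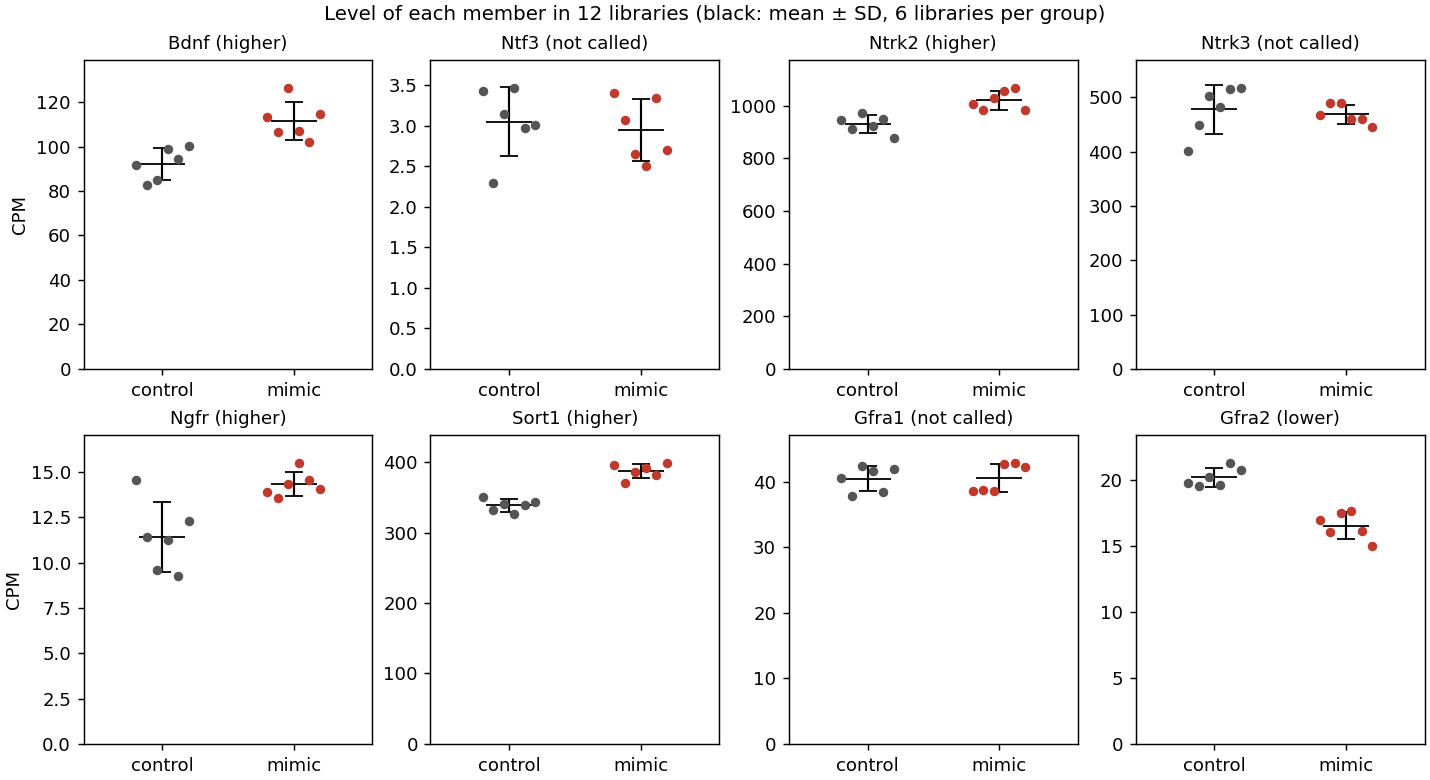
CPM (y axis, from 0) of each gene in every library, control in grey and mimic in red, with the mean and SD of 6 libraries in black and the call in the title. Mimic points lie above all control points for Bdnf, Ntrk2 and Sort1 and below them for Gfra2; for Ngfr a single control library, at 14.5 CPM, reaches into the mimic range.

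The receptors of uncleaved proneurotrophins both rose. Sort1 (ENSMUSG00000068747, chromosome 3, 108284082 to 108361511, plus strand) encodes sortilin, which sorts BDNF into the regulated secretory pathway and is the partner of p75. Its control libraries ran from 326 CPM through a median of 339 to 351, and its mimic libraries from 370 through 389 to 398. This was a clear gap between tight groups. The means were 339 ± 8.72 and 387 ± 10.4 CPM (SD, n = 6 each), and the log2 fold change was 0.19 (SE 0.031, 95% interval 0.13 to 0.26, edgeR adjusted p = 0.000164).

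Ngfr (ENSMUSG00000000120, chromosome 11, 95568818 to 95587735, minus strand) encodes p75, which binds all neurotrophins and is low in mature hippocampal neurons. It had 269 to 495 counts per library. Control libraries ran from 9.27 CPM through 11.3 to 14.5, and mimic libraries from 13.6 through 14.2 to 15.5. The mimic group was the narrower, and 5 of the 6 control libraries lay below all of it. From 11.4 ± 1.92 to 14.3 ± 0.666 CPM (SD, n = 6 each) the log2 fold change was 0.34 (SE 0.086, 95% interval 0.16 to 0.53, edgeR adjusted p = 0.00763), the largest of the 8 by size. The library that overlapped was control replicate 1. Without it the groups did not overlap and the log2 fold change was 0.42 (edgeR adjusted p = 8.34e-05).

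The GDNF family co-receptors parted. Gfra2 (ENSMUSG00000022103, chromosome 14, 70890120 to 70979838, plus strand) encodes GFRα2, the neurturin co-receptor, and was the 1 gene of the list that fell. Control libraries ran from 19.5 CPM through a median of 20.0 to 21.2, and mimic libraries from 14.9 through 16.5 to 17.6. All 6 mimic libraries lay below all 6 control libraries. The mean fell from 20.2 ± 0.692 to 16.5 ± 1.03 CPM (SD, n = 6 each), and the log2 fold change was -0.29 (SE 0.048, 95% interval -0.39 to -0.19, edgeR adjusted p = 0.000287). Of the 3 genes with a site for the mimic, 1 was thus lower, 1 (Ntrk2) higher and 1 (Ntrk3) not called.

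Gfra1 (ENSMUSG00000025089, chromosome 19, 58235604 to 58455909, minus strand) encodes GFRα1, the GDNF co-receptor. Control libraries ran from 37.8 CPM through 41.1 to 42.3 and mimic libraries from 38.5 through 40.4 to 42.8. The 2 groups lay on top of each other, at means of 40.5 ± 1.92 and 40.6 ± 2.18 CPM (SD, n = 6 each). The log2 fold change was 0.0029 (SE 0.044, edgeR adjusted p = 0.977), and its 95% interval, -0.091 to 0.097, is narrow enough to leave out a change of the size of that in Gfra2.

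Whether paired members moved apart was tested on log2 ratios of counts within each library, by exact permutation over all relabellings of the libraries, two-sided, with Benjamini-Hochberg adjustment over 4 pairs. The ratio of Gfra2 to Gfra1 fell in mimic without overlap between the groups, from a mean of -1.003 to one of -1.296 on the log2 scale. The difference was -0.29 (exact permutation p = 0.00216, adjusted p = 0.00866), and this is the lowest p that 6 against 6 libraries allow. The ratio of Ntf3 to Bdnf had means of -4.92 in control and -5.24 in mimic, a difference of -0.33 that missed the threshold after adjustment (exact permutation p = 0.0325, adjusted p = 0.0649). It passed without mimic replicate 5 (difference -0.39, exact permutation adjusted p = 0.0390).

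The other 2 ratios turned on control replicate 1. For Ntrk3 to Ntrk2 the difference was -0.16 (exact permutation p = 0.0584, adjusted p = 0.0779), and -0.21 (exact permutation adjusted p = 0.00866) without that library. For Ngfr to Sort1 the difference was 0.15 (exact permutation p = 0.177, adjusted p = 0.177), and 0.21 (exact permutation adjusted p = 0.00866) without it. In that library Ntrk3 had its lowest and Ngfr its highest level among the control libraries. An outlier check on 24 groups of 6 values flagged none, so there was no such ground for leaving this library out.

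**Figure D4:**
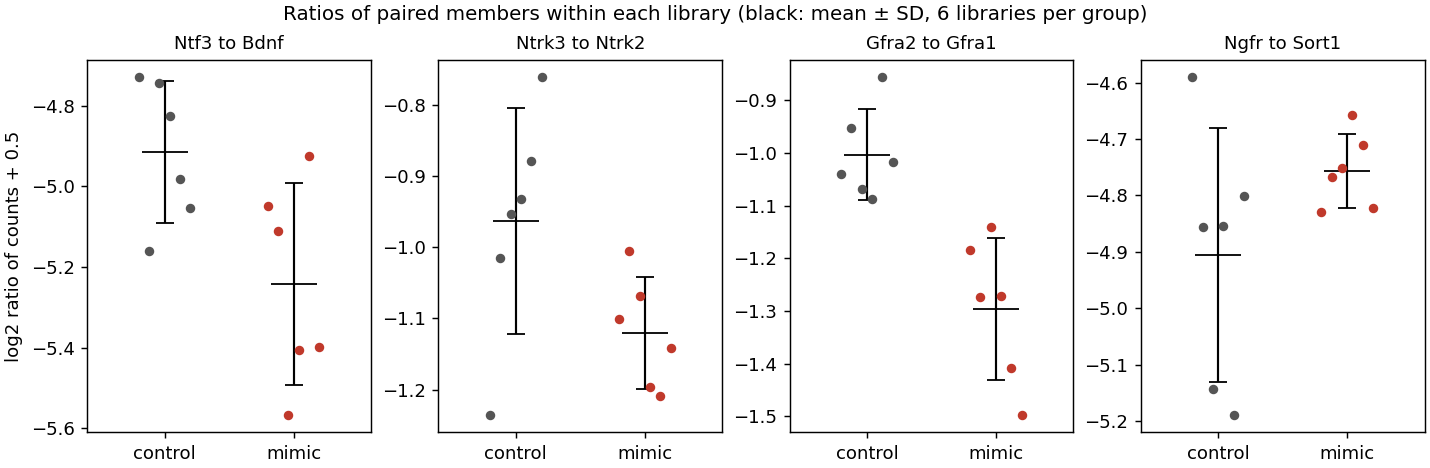
Log2 ratio of counts (0.5 added to each) of 4 gene pairs in every library, control in grey and mimic in red, with mean and SD of 6 libraries in black; each y axis has its own range and does not start at 0. Mimic points lie below all control points for Gfra2 to Gfra1, and the single control library at -1.24 in Ntrk3 to Ntrk2 and at -4.59 in Ngfr to Sort1 is replicate 1.

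The remaining receptors of the 2 families were examined in a list of 5, of which 3 could be tested and all 3 were lower with the mimic. Ret, the kinase shared by the GDNF family, was at 17.9 ± 1.55 CPM in control and 15.0 ± 1.72 in mimic (log2 fold change -0.25, SE 0.076, edgeR adjusted p = 0.0227), with overlapping groups. The call on Ret was lost under 4 of 17 alternatives (edgeR adjusted p up to 0.0667), namely with a replicate block and without control replicate 2, mimic replicate 1 or mimic replicate 2. Gfra4, the persephin co-receptor, fell from 32.1 ± 3.65 to 27.6 ± 0.530 CPM (log2 fold change -0.21, SE 0.060, edgeR adjusted p = 0.0161), and its 3′ UTR holds 2 sites for the mimic. Ncam1, the adhesion molecule through which GFRα co-receptors signal in the absence of RET, fell from 713 ± 21.2 to 647 ± 22.0 CPM (log2 fold change -0.14, SE 0.033, edgeR adjusted p = 0.00458), with 1 site. In Gfra4 and Ncam1 the groups did not overlap. Ret, also lower, holds no such site, and some genes called higher in the lists below hold 1.

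For comparison, 10.7% of all tested genes were called lower and 11.5% higher. Gfra3, with at most 2 counts in a library, and Gfral, with at most 5, were too low to test.

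In a list of 5 further ligands of the 2 families, all were tested and none was called. Nrtn, encoding the ligand of GFRα2, was the highest of them, at 0.985 CPM in control and 0.844 in mimic (log2 fold change -0.21, edgeR adjusted p = 0.455), and Gdnf at 0.392 and 0.329 (edgeR adjusted p = 0.693). Artn, Ntf5 and Pspn were at or below 0.546 CPM in either group. The standard errors of these 5 log2 fold changes ran from 0.18 for Nrtn to 0.34 for Pspn, against 0.057 for Bdnf, so that only larger changes were detectable at this depth.

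Proneurotrophins are cut by furin and proprotein convertases, and sortilin has 4 relatives in the Vps10p family. Of 15 genes of processing and sorting, 14 were tested, 5 were higher and 2 lower (35.7% and 14.3%, beside 11.5% and 10.7% of all tested genes), with a median log2 fold change of 0.093. Leaving out control replicate 1 gave 7 higher and 2 lower, beside 14.4% and 13.1% over all genes tested in that setting. The changes included relatives of sortilin, of which Sorcs1 and Sorl1 each hold 1 site for the mimic. Sorcs1 rose from 27.1 ± 1.06 to 44.6 ± 2.16 CPM (log2 fold change 0.72, SE 0.042, edgeR adjusted p = 2.84e-09) and Sorcs3 from 11.3 ± 1.55 to 15.5 ± 1.25 CPM (0.47, SE 0.078, edgeR adjusted p = 0.000245). Sorl1 was also called, at 157 and 180 CPM (0.20, edgeR adjusted p = 0.000750), while Sorcs2 was at 266 and 294 CPM (0.15, edgeR adjusted p = 0.0728); these 2 were added after their values were seen, to complete the family.

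Among the convertases, Pcsk6 (log2 fold change 0.40, edgeR adjusted p = 2.57e-05) and Pcsk1 (0.34, edgeR adjusted p = 0.000295) rose and Pcsk5 fell (-0.20, edgeR adjusted p = 0.00763). Furin itself, named like Pcsk1 after its values were seen, was at 42.7 and 45.1 CPM (0.081, edgeR adjusted p = 0.282). Mmp3, a protease at an average of 6.75 counts, had the largest change of the list, -1.58 (edgeR adjusted p = 0.00161), and is named for that reason only. It was below the filter of a mean CPM of at least 1, and DESeq2 gave it no adjusted p.

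Of 12 co-receptors and effectors of p75, 3 were higher and 2 lower (25.0% and 16.7%, beside 11.5% and 10.7% of all tested genes), with a median log2 fold change of 0.0055. With control replicate 1 left out, 4 were higher and 2 lower, beside 14.4% and 13.1% over all genes tested in that setting. Tnfrsf19 (TROY), a relative of p75 that can replace it in the Nogo receptor complex, rose from 207 ± 9.72 to 251 ± 7.20 CPM (log2 fold change 0.28, edgeR adjusted p = 2.04e-05). The signalling proteins Irak1 and Traf6, which p75 uses to reach NF-κB, rose by 0.30 and 0.24 on the log2 scale (edgeR adjusted p = 4.10e-05 and 0.000129). Prex1 fell (-0.22, edgeR adjusted p = 0.00775). Ripk2, a kinase recruited to the death domain of p75, was lower (-0.29, edgeR adjusted p = 0.0323), a call that was lost under 8 of 17 alternatives (edgeR adjusted p up to 0.0838), among them the replicate block and leaving out any of control replicates 2, 4 and 6 or mimic replicates 1, 4, 5 and 6.

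Of 50 adaptors and transducers of Trk signalling, 7 were higher, 4 lower and 39 not called, with a median log2 fold change of 0.027. Those called higher were 14% of the list and those lower 8%, near the 11.5% and 10.7% of all tested genes. Lrig1, a membrane protein that restrains receptor tyrosine kinases, rose from 88.0 ± 10.7 to 122 ± 6.97 CPM (log2 fold change 0.47, edgeR adjusted p = 3.98e-05), and the ribosomal S6 kinase gene Rps6ka1 rose by 0.40 (edgeR adjusted p = 0.00107). The adaptor gene Shc4 was called higher (0.36, edgeR adjusted p = 0.00407), but its exons share 527 bases with the opposite-strand gene Eid1, at 6921 counts per library against 255, so its value is uncertain. Nras fell by 0.27 on the log2 scale (edgeR adjusted p = 0.00180) and Sos2, an activator of Ras with 3 sites for the mimic, by 0.20 (edgeR adjusted p = 0.00826). Nras and Lrig1, the latter called higher, hold 1 site each. Sh2b2 was lower (-0.20, edgeR adjusted p = 0.0339), and this call was lost under 9 of 17 alternatives, with an edgeR adjusted p of up to 0.0847. Genes of this list called lower numbered from 2 to 6 when single libraries were left out, with 2 lower without control replicate 3 or 5 or mimic replicate 1 or 4, and also with no filter on low counts or with the replicate block. Without control replicate 1, 10 were higher and 6 lower, at 14.4% and 13.1% over all genes tested in that setting.

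Genes induced downstream of Trk and ERK numbered 25, of which 11 were higher, 2 lower and 12 not called, with a median log2 fold change of 0.21. The share called higher was 44.0% and the share lower 8%, beside 11.5% and 10.7% of all tested genes. Growth factor signalling turns on Etv4, Etv5 and the Sprouty and Dusp feedback genes in many cell types. Etv4 rose from 35.4 ± 6.38 to 58.1 ± 4.30 CPM (log2 fold change 0.72, SE 0.090, edgeR adjusted p = 2.29e-05), and Etv5 from 72.4 ± 7.88 to 105.4 ± 5.54 CPM (0.54, SE 0.059, edgeR adjusted p = 2.99e-06). Arc, the activity-regulated gene of dendrites, rose from 13.3 ± 2.04 to 19.9 ± 1.86 CPM (0.59, SE 0.085, edgeR adjusted p = 6.16e-05). Immediate early genes did not move as a block. Egr2 (-0.77, edgeR adjusted p = 0.00312) and Fos (-0.28, edgeR adjusted p = 0.00134) were lower, and Egr1 (0.21, edgeR adjusted p = 0.0348), named with Npas4 (0.34, edgeR adjusted p = 0.0119) after their values were seen, was higher. Among the genes of this list given by name with values, Etv5 and Egr2 hold 1 site for the mimic each. Without control replicate 1, 15 genes of this list were higher and 2 lower, again beside 14.4% and 13.1% over all genes. The same genes respond to many other signals, and the list was assembled with results of these data known.

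**Figure D5:**
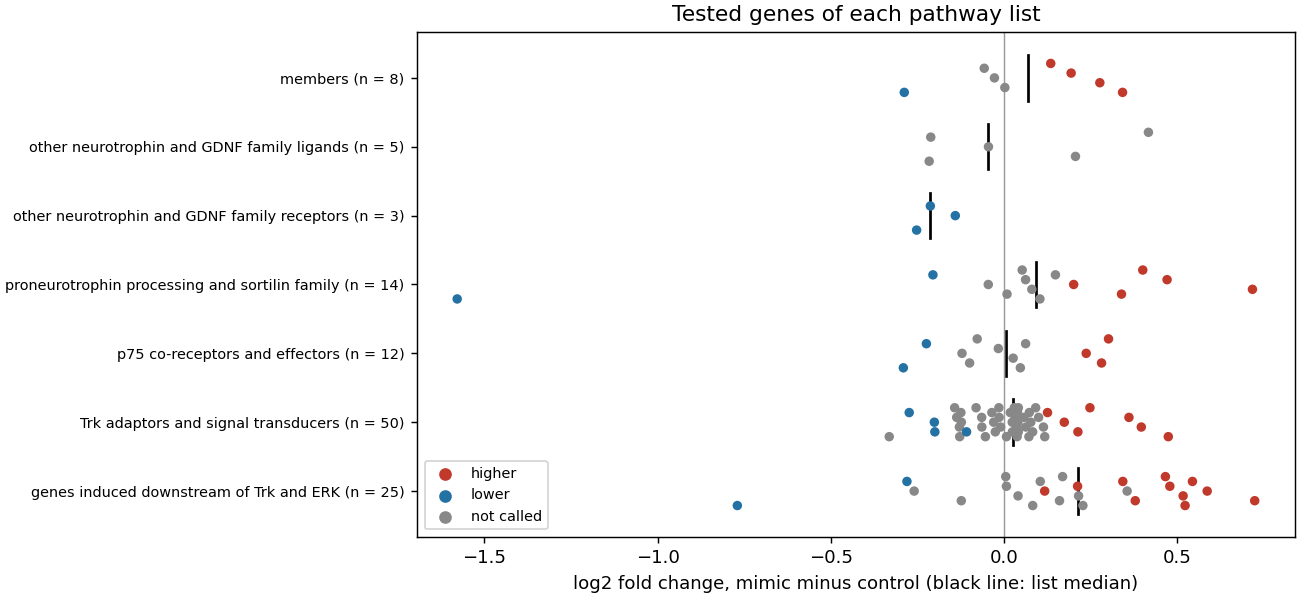
Log2 fold change (x axis, mimic minus control) of every tested gene of the 8 members and of 6 pathway lists, coloured by call at an edgeR adjusted p under 0.05, with each list's median as a black line; the vertical spread within a list is for legibility only. The list of genes induced downstream of Trk and ERK has its median at 0.21 and 11 genes called higher, and all 3 tested receptors of the second receptor list are lower.

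Markers of other cell types moved between the same groups. Their counts of calls stand beside 11.5% higher and 10.7% lower over all tested genes. Of 8 astrocyte markers, 6 were higher and 1, Gfap, was lower, and their summed level rose from a range of 4827 to 5313 CPM in control to 5654 to 6113 in mimic. Slc1a3 was at means of 913 and 1815 CPM, a larger rise than that of the whole sum, and Gfap at 1362 and 731. Of 8 oligodendrocyte lineage markers, 5 were higher and 1 lower, with sums of 393 to 681 CPM in control and 768 to 963 in mimic, most of it Olig1 at means of 369.8 and 720.3 CPM. The control library at 681 CPM was replicate 1, without which the control sums ended at 422 CPM. The 8 neuronal markers summed to 7243 to 7976 CPM in control and 7207 to 7562 in mimic, overlapping ranges, with 2 of them (Tubb3 and Stmn2) lower. Interneuron markers, at 301 to 337 and 318 to 334 CPM, and microglial markers, at 22.0 to 25.9 and 20.9 to 29.4, overlapped as well. The only interneuron marker called was Gad2, which was higher (log2 fold change 0.14, edgeR adjusted p = 0.0129). The only microglial marker called was C1qa, which was lower (-0.79, edgeR adjusted p = 0.000488, at a mean of 35.7 counts). Of 8 mesenchymal markers and 5 tested endothelial markers 2 each were lower, with sums of 201 to 268 CPM in control and 98.1 to 226 in mimic for the former and of 46.6 to 68.7 and 28.3 to 50.8 for the latter. The 2 mesenchymal genes were Acta2, at means of 27.0 and 3.75 CPM, and Tagln, at 49.2 and 14.7, and the other 6 were not called. The endothelial sums again followed Kdr, at means of 58.6 and 37.6 CPM, and without control replicate 1 they ran from 53.8 to 68.7 in control. Astrocytes express truncated TrkB, and the part of these marker changes in the values of Ntrk2, Ngfr, Sort1, Gfra2 and the downstream genes was not tested.

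The genes whose pattern over the 12 libraries was most like that of Bdnf, by the root mean square difference in centred log2 CPM among 12370 genes, were Vxn (0.0484), Chn1 (0.0563) and Calb1 (0.0606), against a median of 0.200 over all genes. For Ntrk2 they were Ncoa6 (0.0387), Usp6nl (0.0399) and Phf21a (0.0406), against a median of 0.136. The measure includes the difference between the groups, so that genes picked by it share the direction of Bdnf or Ntrk2 by construction.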

How the data were processed

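RNA sequencing was performed on 12 libraries, 6 per group. Per the labels and methods, poly(A) libraries were sequenced as 50 bp single-end reads, aligned to mm10 with STAR (2.5.2b) and counted per gene with featureCounts (Subread 1.5.1), with read quality checked in FastQC (0.11.5). The deposited values used were these raw counts for 48709 genes, as the authors made them. The strand setting of the counting was not given in the sources used here. A normalized series table, with 12 columns whose names matched no sample label, was not used.

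A gene was tested when 6 libraries, 50% of them, held 5 or more counts for it. The test was the robust quasi-likelihood F-test of edgeR 4.0.16 (R 4.3.3) with TMM normalization, no covariates and Benjamini-Hochberg adjustment. Standard errors are the log2 fold change divided by the square root of F. CPM used TMM-scaled totals. RPKM used the union of exons in GENCODE M21 (GRCm38, the same build as mm10), which also gave symbols (48349 genes named), coordinates and 3′ UTRs. A site was a complement of seed bases 2 to 8, or of bases 2 to 7 with an A after it, in the longest 3′ UTR. Oligonucleotide sequences came from the reagent list of the study. Ratios used 0.5 added to each count.

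All 8 members are described. In the lists of other ligands and receptors all genes reported are named, and in each remaining list up to 3 genes called higher and 3 lower with the largest change and a mean of at least 100 counts. Exceptions are stated in the text, and 2 genes of these lists are not reported here. The members and lists were chosen with earlier results of these data known. Replicates differed by more than sampling noise (chi-square per degree of freedom 1.78 to 42.7). Alternatives were DESeq2 1.42.0 (the method of the study), DESeq2-type size factors, other filters, a replicate block, other pseudocounts, transcript lengths and leaving out each library.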

Additional observations from a re-analysis of the deposited data

How the results depend on the processing

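The calls on the 8 members, 4 higher and 1 lower, were made under all 17 alternatives run, with edgeR or DESeq2 adjusted p-values of 6.91e-05 to 0.00590 for Bdnf, 0.000332 to 0.0232 for Ntrk2, 8.34e-05 to 0.0242 for Ngfr, 2.92e-11 to 0.00151 for Sort1 and 1.17e-06 to 0.00267 for Gfra2. Ntf3, Ntrk3 and Gfra1 were called under none, with lowest adjusted p-values of 0.482, 0.162 and 0.824. The sign of Gfra1 changed when single libraries were left out, between -0.013 and 0.020. Genes called over the whole table numbered 1880 to 2697 higher and 1612 to 2453 lower when 1 library was left out.

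Leave-one-out ranges of the log2 ratios were -0.39 to -0.26 for Ntf3 to Bdnf, -0.21 to -0.12 for Ntrk3 to Ntrk2, -0.32 to -0.25 for Gfra2 to Gfra1 and 0.092 to 0.21 for Ngfr to Sort1. The replicate block left the ratio of Gfra2 to Gfra1 at -0.29 with an adjusted p of 0.125, where its raw p of 0.0312 was the lowest that the 64 sign flips of this exact test allow, and those of the other 3 pairs were 0.125 to 0.25. Same-numbered libraries did not deviate together (correlations of -0.080 to 0.18, and no library correlated best with its own number), so the numbers were not taken to pair samples. With the block, 1950 genes were higher and 1709 lower, and no member's call changed. With the length of the longest coding transcript, control levels were 21.6 RPKM for Bdnf, 2.06 for Ntf3, 106 for Ntrk2, 24.3 for Ntrk3, 49.5 for Sort1 and 8.72 for Gfra1.

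Counts of calls in the pathway lists under the alternatives were added after seeing the data. When 1 library was left out, they ran from 9 to 15 higher for the genes induced downstream of Trk and ERK, and from 7 to 10 higher and 2 to 6 lower for the Trk adaptors and transducers. The planned test on the normalized series table was not run, as its columns could not be mapped to samples. Among the members and the other ligands, standard errors were largest at low counts, 0.11 for Ntf3 and up to 0.34 for the other ligands. Some marker genes with more counts also had large ones, such as Acta2 at 0.42 with a mean of 453 counts.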
